A study of Homo sapiens with 6 samples.

Results

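The data are Hi-C contact maps of LNCaP cells, an established prostate cancer cell line, and the region described here is a stretch of chromosome 9 around VPS13A in which a boundary between topologically associating domains (TADs) was listed only after CTCF knockdown. The members were the 52 bins of 40 kb between 78920001 and 81000000 (hg19), of 63217 usable bins in the genome, with the genes VPS13A, PRUNE2, PCA3, GNA14 and GNAQ in them. The bin from 79960001 to 80000000, called the boundary bin here, was picked because contacts across it, between the 400 kb on its left and the 400 kb on its right, were lower in the knockdown. Its own change, and every value below that includes contacts of this square of 100 bin pairs, is therefore partly set by the choice and is a description. LNCaP cells had been transfected with a pool of non-targeting siRNA (control siRNA) or of siRNAs against CTCF (CTCF siRNA), each at 20 nM, were split and transfected again on the way, and were collected at 144 h. The labels list 2 control siRNA and 4 CTCF siRNA libraries. The 4 carry the replicate numbers 1 and 2, each also in a second form. Whether the second forms are separate cultures is not stated. The authors merged the libraries into 1 map per condition. There was therefore no replicate, nothing below was set against the spread between replicates, and every interval covers counting error only. CTCF itself is not measured by these maps.

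A TAD is a stretch of chromosome whose parts contact each other more often than they contact the neighbouring stretch, and its edges limit the regulatory elements that a promoter meets. CTCF binds a long motif at many TAD edges and, with cohesin, holds the ends of DNA loops. The left side of the region carries PRUNE2, a gene of a BCH-domain protein, and PCA3, a long noncoding RNA transcribed on the opposite strand from within a PRUNE2 intron and known as a marker of prostate cancer. VPS13A encodes a bridge-like lipid transfer protein and is the gene mutated in chorea-acanthocytosis. The right side carries GNA14 and GNAQ, neighbouring genes for alpha subunits of the Gq class of G proteins.

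In GENCODE on GRCh37, PRUNE2 lies on the minus strand from 79226292 to 79521030 and PCA3 on the plus strand from 79306896 to 79478223. VPS13A runs on the plus strand from 79792361 to 80036453. GNA14, on the minus strand, spans 80037995 to 80263238 and GNAQ, also on the minus strand, 80331013 to 80646727. VPS13A and GNA14 thus point towards each other, and their 3′ ends are 1.54 kb apart. The boundary bin lies wholly inside VPS13A, and its right end is 36.5 kb before the end of the gene. The window holds 10 protein-coding genes.

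The reference sequence of the window was searched for 3 core forms of the CTCF motif, CCANNAGGGGGC, CCANNAGGTGGC and CCANNAGATGGC, on both strands. There were 12 matches, in 9 of 52 bins, and 26.1% of 2350 usable bins of chromosome 9 held at least 1. None lay in the boundary bin. The bin that holds the start of VPS13A, where the control list placed its TAD edge, held 2, both intergenic, and the next matches to the right of the boundary bin were 3 in introns of GNA14, the last of them also in an intron of its antisense gene GNA14-AS1. These 5 are shown because they are the matches in the bin of the control edge and the first ones to the right of the boundary bin. The label VPS13A start stands for the bin that holds the start, and both of its matches lie before the gene. Each is read 5′ to 3′ on the strand given, with the match in capitals. A match is a string in the reference, not a measured binding site.

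VPS13A start, minus strand, chr9:79765856-79765879: tttaggCCAGCAGATGGCagcaag
VPS13A start, plus strand, chr9:79782458-79782481: aaaaatCCACTAGATGGCgctctt
GNA14 intron, plus strand, chr9:80042962-80042985: ttcagtCCAAGAGATGGCattttt
GNA14 intron, plus strand, chr9:80043287-80043310: gcccagCCAAGAGATGGCattttt
GNA14 intron, minus strand, chr9:80082785-80082808: tttatgCCAAGAGGGGGCaagaaa

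The deposited TAD lists divided the region at different places. In control siRNA, 1 TAD of 800 kb from 78980001 to 79780000 held RFK, GCNT1, PRUNE2 and FOXB2. The next, of 960 kb from 79780001 to 80740000, held VPS13A whole, with GNA14 and GNAQ. In CTCF siRNA, a TAD of 760 kb from 79220001 to 79980000 held the end of GCNT1, PRUNE2, FOXB2 and most of VPS13A. It was followed by a TAD of 920 kb from 79980001 to 80900000 with the end of VPS13A, GNA14, GNAQ and CEP78. The control edge lay 12.4 kb before the start of VPS13A, less than the 40 kb of a bin, and the CTCF siRNA edge 200 kb to its right, inside the gene. The outer edges differed too: the left one was at 78980000 in control and 79220000 in CTCF siRNA, 240 kb apart. With edges within 40 kb taken as the same, 3 control boundaries of the window were absent from the CTCF siRNA list, 2 were listed only there, and 1, at 80940000, was shared. By the same rule over the genome, 1646 control boundaries were absent from the CTCF siRNA list and 1829 were shared. Of the CTCF siRNA boundaries, 1068 were listed only there and 1825 were shared. With so few boundaries in the window, nothing is read from these counts.

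The maps differed in depth and in how they covered VPS13A. Read pairs numbered 26174669 in control and 87657806 in CTCF siRNA, of which 52.2% and 64.2% lay within a chromosome. A usable bin of chromosome 9 had a median of 397 and 1551 such cis contacts. All 52 bins of the window were usable, meaning at least 10% of that median in both maps, and the contacts between its bins numbered 7491 in control and 29901 in CTCF siRNA. The boundary bin had 495 cis contacts in control, 1.25 times the median, and 717 in CTCF siRNA, 0.462 times the median.

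**Figure D1:**
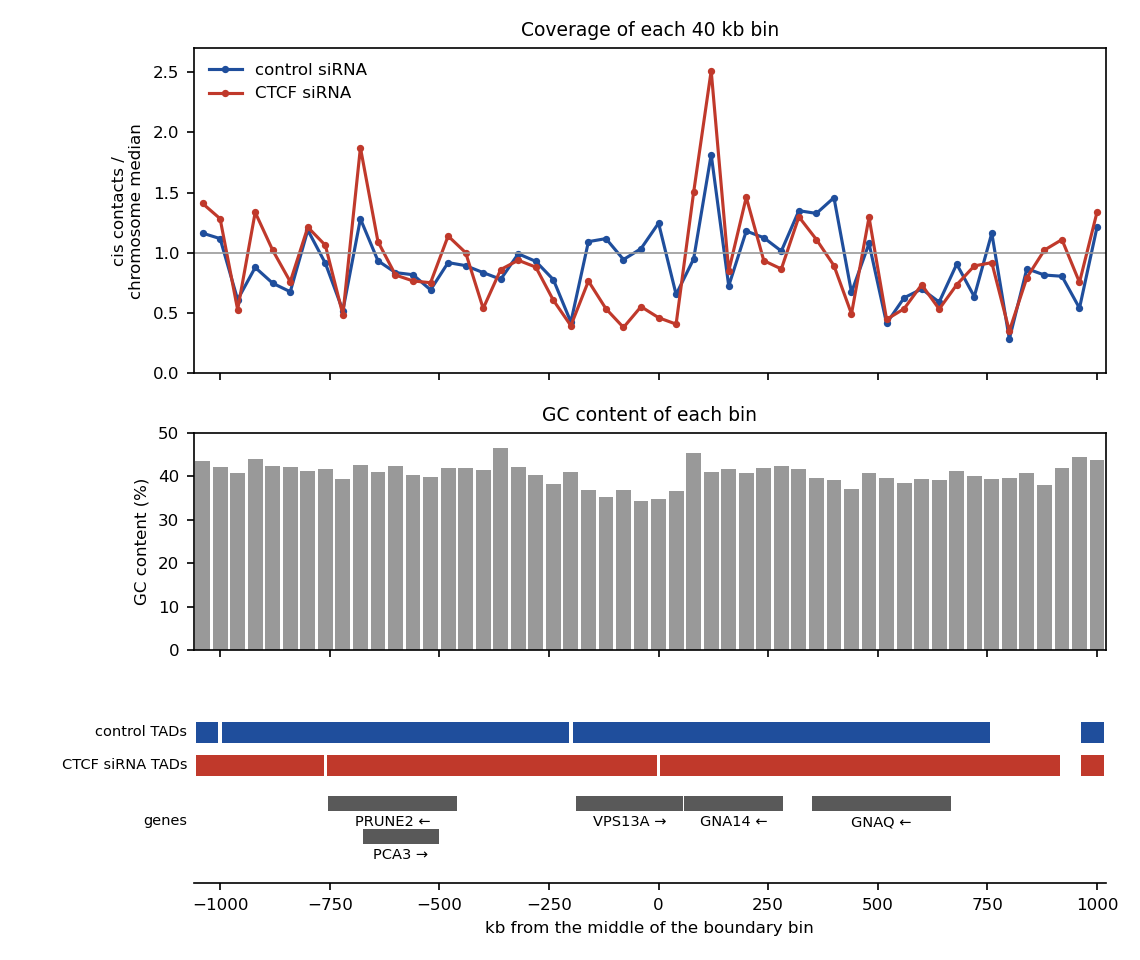
Cis contacts of each 40 kb bin over the chromosome 9 median in control siRNA (blue) and CTCF siRNA (red), above the GC content of each bin in percent and the TADs and genes, against the distance in kb from the middle of the boundary bin. Over VPS13A the red line runs below the blue one where GC content is lowest, with a median of 0.499 against 1.06.

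Low coverage in CTCF siRNA ran along the body of VPS13A. Over the 6 bins of the gene past the bin of its start, coverage relative to the chromosome median was 0.655 to 1.25 in control (median 1.06) and 0.381 to 0.766 in CTCF siRNA (median 0.499). CTCF siRNA over control was 0.371 to 0.701 in these bins, with a median of 0.507. In the other 46 bins of the window the median ratio was 1.08. These 6 bins were the most AT-rich of the window, at 34.3 to 36.9% GC against 37.2 to 46.5% elsewhere, and they held 11 to 15 sites of the restriction enzyme BglII each, against a median of 11 on the chromosome. Of the chromosome 9 bins outside the window with the same GC content, 332 were usable and had a median ratio of 0.588, and 265 of them lay at or below 0.701. Of all 2350 usable bins of chromosome 9, 475 lay at or below 0.701, and the median ratio was 1.0956. Bins were grouped by GC content only, and their positions along the chromosome were not examined. Lower coverage of AT-rich DNA in CTCF siRNA relative to control was therefore also found in chromosome 9 bins outside the window. Its part in the contact values below was not tested. Most contact values are therefore given from counts and from balanced counts, in which every bin was scaled to the same total.

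The insulation value shows how far contacts across a bin are depleted. It is the log2 of observed over expected contacts between the 400 kb on either side, divided by the same ratio within those flanks, where expected is the chromosome's mean at each distance. In control, 228 contacts crossed the boundary bin where 424.6 were expected, and the insulation value was -1.002 ± 0.10 (counting SD). In CTCF siRNA, 347 crossed where 2007 were expected, and the value was -2.28 ± 0.08. Within the flanks, observed over expected was 1.08 and 0.842. The change of -1.28 ± 0.13 was the lowest of the 936 gained boundaries with a value, as the choice of this position implies. Balanced counts gave -0.77 for control and -1.82 for CTCF siRNA, a change of -1.05 that ranked 13th from the lowest among the same boundaries, where the lowest was -1.30. The gained boundaries had a median change of -0.12 from counts and -0.16 from balanced counts.

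**Figure D2:**
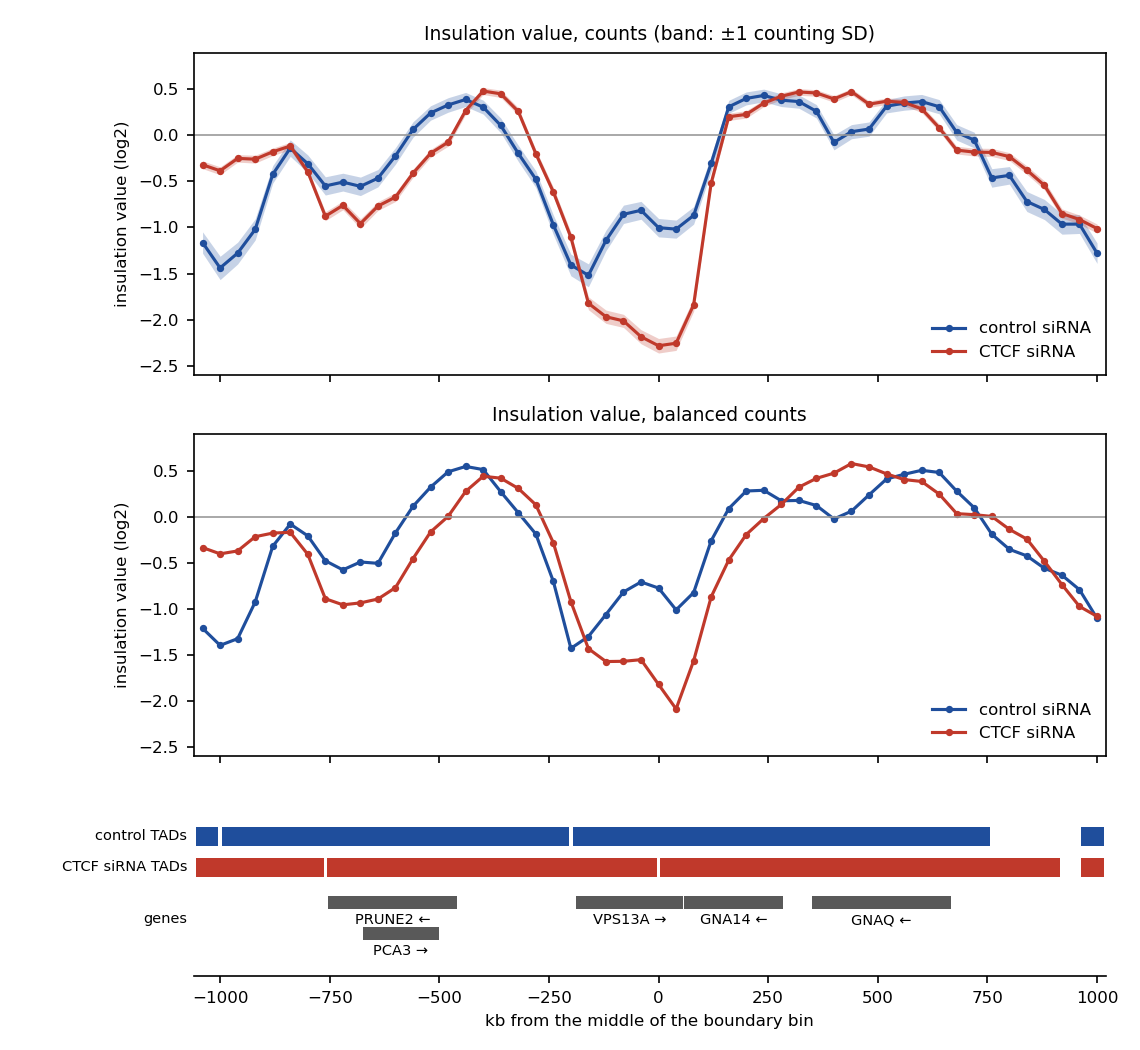
Insulation value (log2) along the window in control siRNA (blue) and CTCF siRNA (red), from counts with a band of 1 counting SD and from balanced counts, above the TADs of both lists and the genes, against the distance in kb from the middle of the boundary bin. The control minimum lies at the start of VPS13A and the CTCF siRNA minimum at its 3′ part, in both versions.

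The lowest point of the profile lay at opposite ends of VPS13A in the 2 maps. In control it was -1.52 ± 0.12 at 79800001 to 79840000, beside the start of the gene. In CTCF siRNA it was the boundary bin itself, 160 kb further right. From balanced counts the minima were -1.43 in the bin with the start of VPS13A and -2.09 at 80000001 to 80040000, the bin in which VPS13A and GNA14 both end, 240 kb apart. The bin of the control minimum was still depleted in CTCF siRNA, at -1.82 ± 0.07 from counts, and balanced counts gave -1.30 in control and -1.43 in CTCF siRNA. The bin with the gene's start was less depleted in CTCF siRNA, at -1.41 in control and -1.11 in CTCF siRNA from counts and at -1.43 and -0.92 from balanced counts. The trough thus covered the length of VPS13A in CTCF siRNA. Control was also depleted in every bin of the gene, at -1.52 to -0.81 from counts and -1.43 to -0.71 from balanced counts. The control values came back to -0.81 ± 0.10 in the bin just left of the boundary bin and were lower again in the next 2 bins, at -1.002 in the boundary bin and -1.02 ± 0.10 at 80000001. From balanced counts these 3 bins had -0.71, -0.77 and -1.01 in control. Neighbouring bins share most of their contacts, the counting SDs are 0.10 each, and the balanced values carry no SD. Whether control had a second dip at the end of VPS13A can therefore not be told.

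Bins that differed by at least 0.5 were counted against the genome. The insulation value was lower in CTCF siRNA by that much in 6 of 52 bins, or 11.5%, against 3.39% of 62012 bins in the genome. They were contiguous, from 79840001 to 80080000, and the boundary was chosen from them, so nothing is read from this share. It was higher by that much in 4 of 52 bins, or 7.69%, against 12.1% in the genome. These were the bins from 78920001 to 79080000, at the control edge between PCSK5, which encodes a proprotein convertase, and RFK, the riboflavin kinase gene. There control had -1.44 ± 0.13 and CTCF siRNA -0.38 ± 0.04, with 138 contacts of 424.6 expected and 1298 of 2007 expected. Balanced counts gave -1.40 and -0.40 for that bin. With balanced counts, 10 bins were lower, against 3.5% in the genome, and 6 were higher, against 10.7%.

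The second boundary listed only in CTCF siRNA lies at 79220000, just left of the end of the PRUNE2 annotation and inside GCNT1, which encodes a glycosyltransferase. In the bin around it counts gave an insulation of -0.55 ± 0.10 in control and -0.88 ± 0.05 in CTCF siRNA, and balanced counts gave -0.48 and -0.89. This difference of -0.33 ± 0.11 did not reach the 0.5 used for counting bins. Across the bodies of PRUNE2 and PCA3 the values were also lower in CTCF siRNA. The differences were -0.47 to -0.25 over the bins from 79200001 to 79520000, and -0.59 to -0.38 from balanced counts. In the bin with the start of PRUNE2, at 79520001, the difference was -0.12 ± 0.09 from counts and -0.27 from balanced counts. The edge shared by both lists near PSAT1, the gene of a serine synthesis enzyme, was -0.96 ± 0.10 in control and -0.91 ± 0.05 in CTCF siRNA at 80920001 to 80960000, within 1 counting SD. Balanced counts gave -0.79 and -0.97, a difference in the other direction.

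The bias of each bin's contacts towards upstream or downstream, on which the TAD calls rest, differed in sign between the maps in some bins of VPS13A and not in others. The bias is the difference between downstream and upstream contacts within 2 Mb over their sum. At 79800001, just past the start of the gene, control had 104 upstream and 154 downstream contacts, a bias of 0.194, and CTCF siRNA had 512 and 245, a bias of -0.353. At 79840001 the bias was 0.277 and -0.272. Both bins pointed right in control and left in CTCF siRNA. The bin with the gene's start pointed left in both maps, at -0.148 and -0.439. At 79880001 the bias was -0.0313 and -0.0576 and at 79920001 it was 0.0159 and -0.0778, all close to even. The bin where VPS13A and GNA14 end was close to even in control, with 99 upstream and 90 downstream contacts and a bias of -0.0476, and pointed right in CTCF siRNA, with 154 and 303 and a bias of 0.326. The boundary bin between them did not differ detectably, at -0.127 in control and -0.193 in CTCF siRNA, a difference of -0.0656 (95% interval -0.212 to 0.0806), and had -0.110 and -0.258 from balanced counts. For the bins at 79800001 and 79840001 balanced counts kept these signs, at 0.0603 and -0.268, then 0.269 and -0.131. They also did for the bin where VPS13A and GNA14 end, at -0.085 and 0.161. At 79920001, where the signs from counts differed too, balanced counts gave -0.0015 and -0.0685, with the same sign in both maps. Part of the contacts of all these bins lies in the square that chose the boundary bin.

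Whether each part of VPS13A contacted its left or its right neighbourhood was then read bin by bin over 400 kb either way. The bin with the gene's start had 38 contacts to the left and 37 to the right in control, or 50.7% to the left (Wilson 95% interval 39.6 to 61.7%). In CTCF siRNA it had 240 and 81, or 74.8% (69.7 to 79.2%). The share at 79800001 was 30.2% (23.6 to 37.7%) in control and 62.5% (58.2 to 66.6%) in CTCF siRNA. At 79840001 it was 33.2% (27.1 to 39.9%) and 56.6% (51.2 to 61.8%). In these 3 bins of the 5′ part of VPS13A the share on the side of PCA3 was larger in CTCF siRNA. Their contacts past the right end of the boundary bin lie in the square that was chosen for low values in CTCF siRNA, so a larger share to the left is partly set by the choice and nothing is read from it.

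From 79880001 to the boundary bin the shares were closer in the 2 maps, but not in the last bin of the gene. At 79880001 and 79920001 the shares to the left were 50.8% and 47.5% in control and 45.2% and 48.3% in CTCF siRNA. The boundary bin had 62.7% (56.1 to 69.0%) in control and 67.6% (62.0 to 72.6%) in CTCF siRNA, with overlapping intervals, as had balanced counts at 61.5 and 71.5%. In the last bin of the gene the share was 55.1% (46.8 to 63.3%) in control and 33.7% (28.1 to 39.8%) in CTCF siRNA. All of its left-hand contacts but those with the boundary bin lie in the same square, so this order too is partly set by the choice. From balanced counts the shares were 55.6% and 73.1% in the bin with the start, 40.3% and 58.0%, then 34.5% and 48.9% in the next bins, and 58.2% and 49.1% in the last. The order of the maps was the same in these 4 bins, but in the last bin the balanced intervals overlapped, at 49.4 to 66.4% and 42.4 to 55.8%.

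Contacts between the whole left side, 26 bins, and the whole right side, 25 bins, were then summed. In control 621 contacts joined the sides where 1013.6 were expected, an observed over expected of 0.613 (95% interval 0.565 to 0.663). In CTCF siRNA 1661 did where 4879 were expected, or 0.340 (0.324 to 0.357). The ratio of the maps was 0.556 (0.506 to 0.610). Balanced counts gave 0.744 and 0.470, with a ratio of 0.631 (0.569 to 0.700). The square that chose the boundary bin holds 100 of these 650 bin pairs. The other 550 had 393 contacts in control and 1314 in CTCF siRNA, an observed over expected of 0.667 and 0.457, with a ratio of 0.686 (0.612 to 0.769) from counts and 0.677 (0.597 to 0.768) from balanced counts. Within the sides the ratios were nearer to 1. The left side had 0.824 in control and 0.725 in CTCF siRNA and the right side 0.884 and 0.852, and from balanced counts these were 1.02 and 1.04, then 1.03 and 1.11. The ratios of both sides thus moved from below to above 1 with balanced counts, but for each side the interval of 1 version held 1. The left side went from a ratio of 0.8799 (0.847 to 0.915) to 1.02 (0.982 to 1.07), and the right side from 0.963 (0.927 to 1.001) to 1.08 (1.03 to 1.13).

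**Figure D3:**
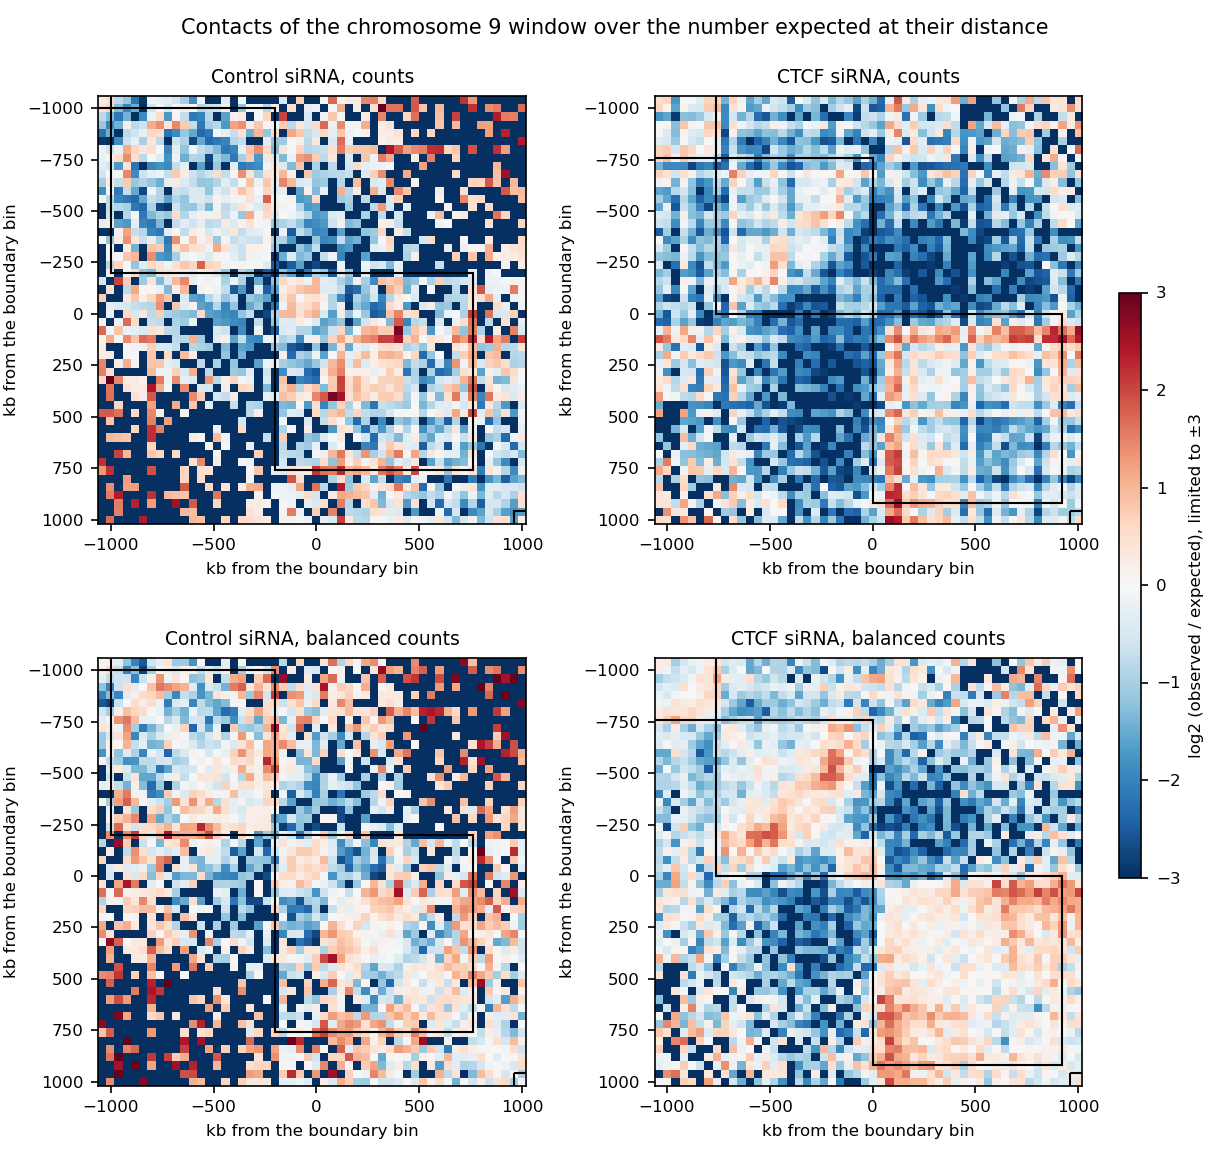
Contacts between all bins of the window over the number expected at their distance (log2, blue below and red above expected, limited to 3 either way) in control siRNA and CTCF siRNA, from counts and from balanced counts, with the TADs of each list as black squares and both axes in kb from the boundary bin. In CTCF siRNA the black squares meet in the boundary bin. From counts, contacts within VPS13A past its start, whose last bin lies in the right square, are also low, at 0.458 of the number expected. From balanced counts, the bin just right of the boundary bin still contacts the bin just left of it near the number expected, at 1.17. In control the black squares meet 200 kb to the left, and many distant bin pairs have no contact at this depth.

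Relative to distance, contacts between the sides were fewer in CTCF siRNA than in control in every distance class. For bin pairs 80 to 400 kb apart, observed over expected was 0.534 in control and 0.182 in CTCF siRNA, a ratio of 0.340 (0.275 to 0.422). At 440 to 800 kb it was 0.473 and 0.228, at 840 to 1200 kb 0.736 and 0.494, and at 1240 to 2040 kb 0.883 and 0.637. The ratios of the last 3 distance classes were 0.481, 0.671 and 0.721. In the last class the control interval held 1, at 0.732 to 1.06. All 45 bin pairs of the nearest class and 55 of 145 in the next lie in the square that chose the boundary bin, so their low ratios are set by the choice and the classes are not ranked. Outside the square, the 440 to 800 kb class had a ratio of 0.680 (0.527 to 0.886) from counts and 0.8004 (0.607 to 1.06) from balanced counts. No bin pair of the 2 farther classes lies in the square. From balanced counts, control had 0.657, 0.516, 0.918 (0.781 to 1.07) and 1.15 (0.927 to 1.40) from the nearest class to the farthest, so that in this version control was not detectably depleted in the 2 farther classes. CTCF siRNA had 0.360, 0.338, 0.592 and 0.744. The balanced ratios were 0.548 (0.432 to 0.694) in the nearest class and 0.654, 0.645 and 0.649 in the others.

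Splitting the window into the 21 bins left of VPS13A, the 6 bins of the gene past its start and the 24 bins right of it shows which contacts differed. Between VPS13A and the right part, observed over expected was 0.674 in control and 0.278 in CTCF siRNA, a ratio of 0.412 (0.362 to 0.470). From balanced counts it was 0.744 and 0.577, a ratio of 0.776 (0.674 to 0.894). Of these 144 bin pairs, 36 lie in the square that chose the boundary bin. Without them the ratio was 0.471 (0.403 to 0.551) from counts and 0.865 (0.731 to 1.02) from balanced counts, an interval that held 1. Between the left part and VPS13A the versions disagreed, with 0.567 and 0.468 from counts, a ratio of 0.825 (0.716 to 0.954), and 0.641 and 0.824 from balanced counts, a ratio of 1.29 (1.11 to 1.49). The last bin of the gene lies right of the boundary bin, so some of these bin pairs lie in the square too.

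Contacts between the left and the right part, which leave VPS13A out altogether, were 352 in control and 1229 in CTCF siRNA. Observed over expected was 0.626 and 0.449, a ratio of 0.718 (0.637 to 0.810), and balanced counts gave 0.728 and 0.486, a ratio of 0.668 (0.586 to 0.761). Without the 45 bin pairs in the square, the ratios were 0.764 (0.672 to 0.8696) and 0.685 (0.596 to 0.789). Within VPS13A itself counts gave 1.33 and 0.458, a ratio of 0.345 (0.315 to 0.378), and balanced counts 1.31 and 1.43, a ratio of 1.09 (0.991 to 1.20). The low contacts of VPS13A with itself in CTCF siRNA were thus seen in counts alone. Some bin pairs within the gene also lie in the square.

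**Figure D4:**
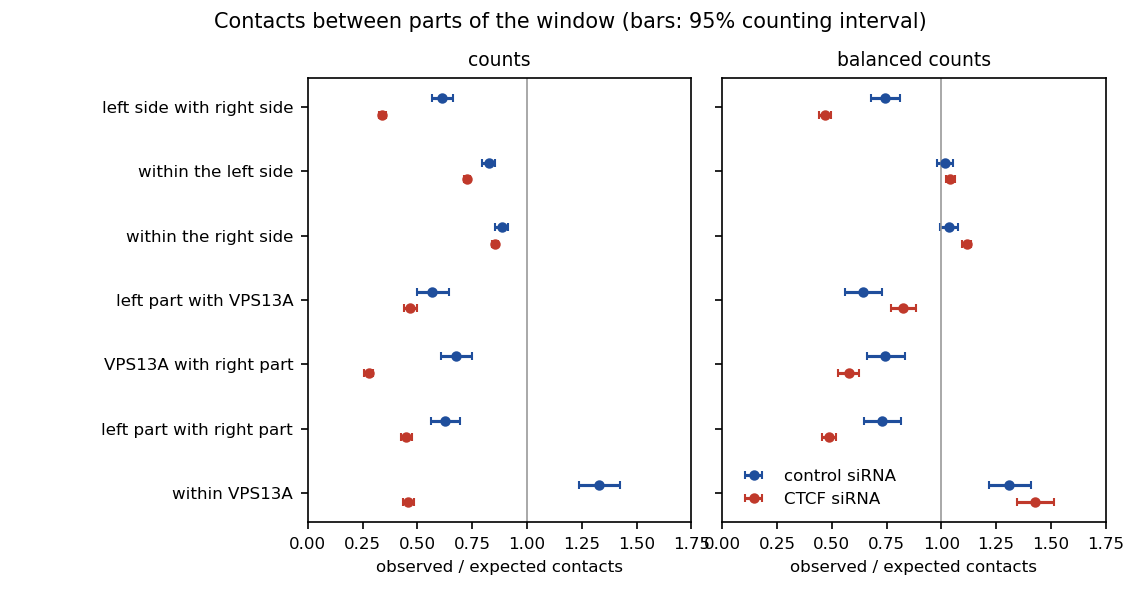
Observed over expected contacts between and within the parts of the window in control siRNA (blue) and CTCF siRNA (red), from counts on the left and balanced counts on the right, with 95% counting intervals; the grey line marks 1. Contacts of the left with the right side, and of VPS13A with the right part, are lower in CTCF siRNA in both panels. VPS13A with itself and with the left part is lower only from counts. All of these include contacts that chose the boundary bin.

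Between single genes, the pairs that span the whole region did not differ detectably. PCA3 and GNA14 shared 30 contacts in control and 140 in CTCF siRNA, an observed over expected of 0.463 and 0.438, with a ratio of 0.946 (0.634 to 1.45). PCA3 and GNAQ had 20 and 103, or 0.451 and 0.475, with a ratio of 1.05 (0.648 to 1.80). For PRUNE2 with GNA14 the ratio was 0.908 (0.679 to 1.23) and for PRUNE2 with GNAQ 0.845 (0.592 to 1.23). All 4 pairs were already below the number expected in control, and all 4 intervals of the ratio held 1, from balanced counts as well. With 20 to 57 contacts in control, a difference within these intervals was not detectable at this depth.

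VPS13A was then paired with the genes on its right and on its left, and the sides were not tested against each other. VPS13A and GNA14, without the bin they share, had 115 contacts in control and 188 in CTCF siRNA, an observed over expected of 0.503 (0.416 to 0.604) and 0.179 (0.154 to 0.206). The ratio was 0.355 (0.280 to 0.452) from counts and 0.561 (0.433 to 0.726) from balanced counts. Of the 36 bin pairs of these genes 30 lie in the square that chose the boundary bin, so nothing is read from these low ratios. The 6 others, which join the boundary bin itself to GNA14, had 33 and 48 contacts and a ratio of 0.325 (0.204 to 0.522) from counts and 0.671 (0.419 to 1.07) from balanced counts. VPS13A and GNAQ had 0.792 and 0.285, a ratio of 0.359 (0.289 to 0.448), and 0.852 (0.675 to 1.08) from balanced counts, an interval that held 1. Without the 10 of 63 bin pairs that lie in the square, the ratio was 0.448 (0.349 to 0.580) from counts and 0.991 (0.758 to 1.30) from balanced counts. Whether the ratios of the pairs with GNA14 and with GNAQ differ was not tested.

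On the other side, VPS13A and PCA3 had 0.848 in control and 0.821 in CTCF siRNA, a ratio of 0.969 (0.772 to 1.23). From balanced counts these were 1.19 and 1.55, a ratio of 1.30 (1.01 to 1.67). PRUNE2, whose bins include those of PCA3, gave the same picture with VPS13A, at a ratio of 0.986 (0.829 to 1.18) from counts and 1.27 (1.04 to 1.54) from balanced counts. GNA14 and GNAQ, which lie in 1 TAD in both lists, had 1.24 and 1.14, a ratio of 0.921 (0.826 to 1.03), and 1.17 and 1.44 from balanced counts, a ratio of 1.23 (1.09 to 1.39). The versions thus differed on whether contacts of these pairs were higher in CTCF siRNA. The boundary bin and the last bin of VPS13A are counted with the gene, so its pairs do not lie wholly inside 1 CTCF siRNA TAD.

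**Figure D5:**
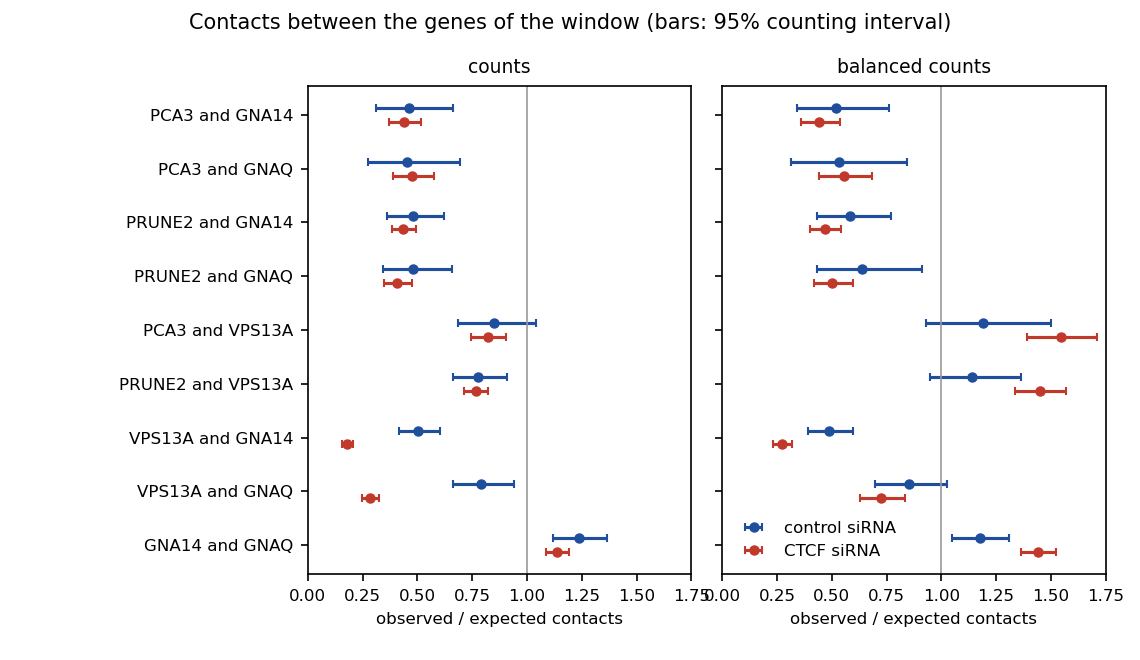
Observed over expected contacts between the bins of each pair of genes in control siRNA (blue) and CTCF siRNA (red), from counts on the left and balanced counts on the right, with 95% counting intervals; the grey line marks 1. The upper 4 pairs, which join PCA3 or PRUNE2 to GNA14 or GNAQ, overlap between the maps, and VPS13A with GNA14 is the pair whose intervals stand apart in both panels, with 30 of its 36 bin pairs among those that chose the boundary bin.

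Along VPS13A, more of the contacts with PCA3 came from its 5′ part, which is also nearer to PCA3. The number expected from distance fell from the first to the last bin of the gene, from 20.3 to 11.5 in control and from 98.2 to 57.0 in CTCF siRNA. The bin at 79880001 had 6 contacts with PCA3 in control and 46 in CTCF siRNA. Their ratio was 1.57 (0.671 to 4.51) from counts and 2.81 (1.19 to 6.65) from balanced counts. At 79840001, and from 79920001 to the last bin of the gene, all intervals of the ratio with PCA3 held 1. The bin at 79800001 had 26 contacts with PCA3 in control and 145 in CTCF siRNA, an observed over expected of 1.41 (0.924 to 2.07) and 1.63 (1.38 to 1.92), with a ratio of 1.15 (0.757 to 1.83) that held 1. From balanced counts these were 1.37 and 2.18, a ratio of 1.59 (1.04 to 2.44). Its contacts with GNA14 were 18 and 25, or 0.611 and 0.180, a ratio of 0.294 (0.154 to 0.573), and 0.318 (0.167 to 0.603) from balanced counts. With GNA14 this bin was below the number expected in both maps, with an interval of 0.362 to 0.966 in control, and all 6 of these bin pairs lie in the square that chose the boundary bin. The neighbouring bin with the start of the gene had 20 and 94 contacts with PCA3, a ratio of 0.974 from counts and 1.04 from balanced counts, and 10 and 22 with GNA14, where the intervals of the ratio were 0.209 to 1.09 and 0.217 to 1.07. All 4 of its intervals held 1. The last bin of the gene, past the boundary bin, had 4 and 14 contacts with PCA3 and 36 and 119 with GNA14, and its ratio with GNA14 was 0.739 from counts and 0.988 from balanced counts, with intervals that held 1.

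Contacts of each gene with itself did not differ detectably between the maps once balanced. From counts, the ratio of the maps was 1.21 within PCA3, 1.08 within PRUNE2, 1.13 within GNA14, 0.720 within GNAQ and 0.354 within VPS13A. From balanced counts these were 1.09, 0.988, 1.03, 1.03 and 1.08, and each interval held 1. The order of the genes from counts was thus not present in balanced counts. Some bin pairs within VPS13A lie in the square that chose the boundary bin.

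Seen from the bins of the gene starts, the share of contacts with the far side of the boundary bin did not differ detectably between the maps for any of the 5 genes. For VPS13A it was 17.8% (Wilson 95% interval 11.6 to 26.4%) in control and 12.7% (9.85 to 16.3%) in CTCF siRNA, where the distances alone gave 23.7 and 24.8%. For GNA14 it was 10.8% (7.56 to 15.1%) and 6.87% (5.40 to 8.71%), against 20.0 and 21.1% from distance. PRUNE2 had 9.88 and 6.97%, against 14.3 and 15.2%, and GNAQ had 5.50 and 5.11%, against 10.3 and 10.9%. In CTCF siRNA these 4 genes were below the share from distance by their intervals, and in control GNA14 and GNAQ were. Part of the far-side contacts of VPS13A and GNA14 lies in the square that chose the boundary bin. Their low shares in CTCF siRNA are therefore partly set by the choice, and nothing is read from them. The start bins of PRUNE2 and GNAQ lie outside that square.

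PCA3 lay closer to the share from distance. From the start of its annotation it had 7.46% in control and 9.65% in CTCF siRNA, against 9.94 and 10.6%, and both intervals from counts held the share from distance. From the start of another of its annotated transcripts, 80 kb to the right, it had 13.5 and 9.12% (7.14 to 11.6%), against 11.1 and 11.8%, so that CTCF siRNA lay just below the share from distance. The direction for PCA3 thus turned with the start that was used. From balanced counts the shares were 16.8 and 12.0% for VPS13A, 11.5 and 7.30% for GNA14, 8.74 and 6.76% for PRUNE2, and 5.07 and 5.23% for GNAQ. For PCA3 they were 6.98 and 8.67% from the first start and 13.1 and 8.89% from the second. From the first start CTCF siRNA then lay below the share from distance, at 7.13 to 10.5% against 11.4%. GNAQ thus turned in direction, and the intervals of the maps overlapped for every start in both versions.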

How the data were processed

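Hi-C libraries of LNCaP cells fall into groups by the siRNA that the labels name. Per the methods, the authors digested chromatin with BglII and aligned reads to hg19 using Bowtie 1.1.0 inside HiCUP. Reads were sorted with SAMtools 1.2, duplicates were tagged with Picard 1.121, and the libraries of each condition were merged at a bin size of 40 kb. TADs were called by the authors from upstream and downstream contact bias through a hidden Markov model. The deposited contact values are read-pair counts, which between positions 9400001 and 48120000 of a chromosome carry a correction factor for each bin. The factors were found from the values and divided out. Of the values with a factor product over 4 times the tolerance, 100% in control and 99.9999% in CTCF siRNA were whole multiples of it, with a tolerance of 0.0101 plus 0.05 percent of each value. The window lies outside these positions, where every deposited value was whole. Which fragment or mapping biases the values still carry was not tested.

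Expected contacts were the mean of chromosome 9 at each distance over usable bins. A bin had a value where at least 50% of its bin pairs were usable. Observed over expected carries exact Poisson 95% intervals, ratios between maps from counts carry exact conditional binomial intervals, and shares carry Wilson intervals. Balanced counts were obtained by iterative correction over the chromosome, with intervals from the effective count. For ratios between maps these are normal approximations on the log scale, and they leave out error in the balancing. PCR reads have no molecular identifiers, so all intervals cover counting error only. Because each condition is 1 map, no test was made. Genes and sequence came from GRCh37 and GENCODE version 44. Scripts used Python 3.11.15 with numpy 2.4.6 and scipy 1.17.1, and were tested on simulated maps.

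The members, the list of genes and the comparisons were chosen with earlier results of these data known. The genes named are the 5 members and others only where a described bin or TAD edge overlaps or neighbours them. The split at VPS13A, the distance classes, the values of single VPS13A bins, the second start of PCA3, the values outside the square that chose the boundary bin, the comparison at equal GC content and the rank from balanced counts were chosen after the data were seen.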

Additional observations from a re-analysis of the deposited data

How the results depend on the processing

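Over 23 results and 160 alternative settings, 129 values stayed within the 95% counting interval of the reported value, or within 1.5 times a reported count, and the others moved further. In 19 the sign differed from the reported value. In 17 of these the reported interval held 0, among them PCA3 with VPS13A, PRUNE2 with VPS13A, and GNA14 with GNAQ, whose log2 ratios of -0.05, -0.02 and -0.12 were 0.38, 0.34 and 0.30 with balanced counts. The other 2 were the contacts within the left side, below. The log2 change of the insulation value at the boundary bin, -1.28, was -0.83 with flanks of 800 kb and -1.66 with the values as deposited. The log2 ratio of contacts between the sides, -0.85, was -0.66 with balanced counts, -1.64 with sides of 400 kb and -0.48 without the VPS13A bins and -0.54 without the bin pairs that chose the boundary bin, the last 2 chosen after the data were seen. Within the left side the log2 ratio of -0.18 changed direction to 0.035 with balanced counts and 0.18 with the values as deposited, and was -0.26 with expected contacts from the long arm, -0.10 with those from all autosomes, -0.70 with sides of 400 kb and -0.26 with the boundary bin added. Within the right side, -0.05 became 0.11 with balanced counts, -0.13 with the long arm, 0.035 with all autosomes, 0.31 with the values as deposited, -0.17 with sides of 400 kb and -0.12 with the boundary bin added. The number of window bins lower by at least 0.5 was 6, and was 12 with flanks of 200 kb, 10 with balanced counts and 20 with the values as deposited. The number higher was 4, and was 10 with flanks of 200 kb, 7 with flanks of 800 kb, 12 without contacts of the same and neighbouring bins and 2 with the values as deposited. The cause of these moves was not tested. For the VPS13A viewpoint the filter at 50% of the median gave no value, since the bin of its start has 0.426 and 0.396 times the median. No paired analysis was possible because all libraries of each condition were merged into 1 map, and for the same reason no library could be left out. Depth limits the control map, in which gene pairs across the region rest on 20 to 57 contacts.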
